A study of Mus musculus with 30 samples.

Results

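Expression of 10 genes that mark lipid-associated macrophages was followed in gonadal white adipose tissue (gWAT), the visceral fat depot beside the testes. The genes were Trem2, Tyrobp, Itgax, Gpnmb, Cd9, Cd68, Lgals3, Plin2, Fabp5 and Spp1. Each was read from the probe set that carries its symbol alone, and from the brightest such probe set over all 30 arrays where a gene has several. By this rule 9 of the 10 genes were measured, out of 22180 genes with a probe set of their own and 41345 probe sets in all. Spp1, which encodes the secreted protein osteopontin, was not analysed here because the annotation used names no probe set for it.

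The 30 arrays covered 5 groups of male wild type C57BL6/J mice, 6 arrays per group, all aged 35 weeks. Formerly obese-HFD mice were fed a high-fat diet (HFD, 58% of energy from fat) for 20 weeks, then a control diet (10.5% of energy from fat) for 7 weeks, and then HFD again for 48 h. Formerly obese mice had the same 20 weeks of HFD and 7 weeks of control diet without the last step. Obese mice stayed on HFD for 27 weeks. Lean-HFD mice had control diet for 27 weeks and then HFD for 48 h, and lean mice had control diet for 27 weeks. RNA came from a piece of the whole depot, so that more cells of a type and more RNA per cell cannot be told apart. The labels name no litter or batch. What the p-values measure is therefore the scatter of these arrays.

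Lipid-associated macrophages gather around dying fat cells in obese adipose tissue, take up their lipid and break it down in lysosomes. The receptor Trem2 binds lipids at the cell surface and passes the signal on through the adaptor protein Tyrobp, also called DAP12. In mice, macrophages of this kind depend on Trem2. Itgax encodes the integrin chain CD11c, the classical marker of macrophages recruited to obese fat. Gpnmb is a glycoprotein of lysosomes and of the cell surface, Cd9 a tetraspanin of the plasma membrane, Cd68 a glycoprotein of lysosomes and Lgals3 the sugar-binding protein galectin-3. Plin2 coats lipid droplets and Fabp5 carries fatty acids in the cytosol. Cd9, Lgals3, Plin2 and Fabp5 are also made by other cells of fat tissue, including fibroblasts and adipocytes.

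All values below are log2 expression, on which a difference of 1 is a 2-fold change. Array medians lay between 4.85 and 4.97 and correlations between arrays between 0.953 and 0.984. Adipocyte markers, as the mean of 8 genes, lay between 10.30 and 10.92 on every array, far above the array medians. A gene is said to rise or fall only where limma gave an adjusted p under 0.10 over all 41345 probe sets, with a fold above 1.3 and a group mean above 4 on the log2 scale. This is the stricter of the study's 2 definitions, the other taking an unadjusted p under 0.01 in place of the adjusted one. Arrays are named by group and replicate number, for example obese 1.

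Trem2 and Tyrobp, the receptor and its adaptor, were highest in obese mice. The 6 formerly obese-HFD arrays had Trem2 levels of 7.87, 8.28, 6.08, 6.20, 6.01 and 5.75, and the 6 formerly obese arrays 6.42, 6.66, 6.04, 5.42, 6.64 and 7.95. In obese mice Trem2 stood at 7.31, 9.03, 8.97, 7.72, 8.03 and 8.88. Lean-HFD arrays held 5.44 to 6.16 (median 5.83) and lean arrays 5.71 to 6.23 (median 6.05). No lean or lean-HFD array reached the lowest obese array, while formerly obese 6 and formerly obese-HFD 1 and 2 did. Tyrobp averaged 10.69 ± 0.62 in formerly obese-HFD, 10.69 ± 0.35 in formerly obese, 11.36 ± 0.32 in obese, 10.20 ± 0.18 in lean-HFD and 10.28 ± 0.13 in lean mice (SD, n = 6 each). Its obese arrays ran from 11.004 to 11.66 and its lean arrays from 10.04 to 10.39, again without overlap.

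Itgax and Gpnmb had the widest spread of the measured genes. Itgax lay at 4.35 to 7.82 (median 5.47) in formerly obese-HFD mice, 5.46 to 8.05 (median 5.93) in formerly obese mice and 7.12 to 8.90 (median 8.26) in obese mice. In lean-HFD mice it lay at 4.95 to 5.86 (median 5.29) and in lean mice at 5.01 to 5.52 (median 5.29). The 6 Gpnmb levels of formerly obese-HFD mice were 10.50, 10.29, 7.23, 8.60, 8.68 and 7.58, and those of formerly obese mice 8.87, 8.99, 8.19, 8.00, 9.16 and 10.59. Obese arrays had 9.65 to 11.45 (median 10.78), lean-HFD arrays 6.70 to 8.21 (median 6.96) and lean arrays 6.82 to 8.02 (median 7.06). Gpnmb of 5 formerly obese arrays lay above every lean array, and formerly obese 4 lay just below the highest of them, lean 5. Cd9 differed less between groups, with 8.68 ± 0.52 in formerly obese-HFD, 8.73 ± 0.26 in formerly obese, 9.30 ± 0.41 in obese, 8.29 ± 0.18 in lean-HFD and 8.42 ± 0.13 in lean mice.

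The lysosomal marker Cd68 averaged 10.02 ± 0.91 in formerly obese-HFD, 10.07 ± 0.54 in formerly obese, 11.15 ± 0.45 in obese, 9.26 ± 0.25 in lean-HFD and 9.44 ± 0.29 in lean mice. Lgals3 averaged 6.23 ± 0.59 in formerly obese-HFD, 6.40 ± 0.35 in formerly obese, 7.31 ± 0.24 in obese, 5.89 ± 0.32 in lean-HFD and 6.04 ± 0.21 in lean mice. All 6 obese arrays lay above every formerly obese array for Lgals3, and for Cd68 formerly obese 6 (11.06) reached into the obese range of 10.55 to 11.59. Among the genes of lipid handling, Plin2 averaged 9.74 ± 0.15 in formerly obese-HFD, 9.82 ± 0.35 in formerly obese, 10.59 ± 0.16 in obese, 9.64 ± 0.29 in lean-HFD and 9.66 ± 0.24 in lean mice. Fabp5 was tight within groups, at 11.14 ± 0.14 in formerly obese-HFD, 11.37 ± 0.11 in formerly obese, 11.68 ± 0.06 in obese, 11.17 ± 0.20 in lean-HFD and 11.38 ± 0.18 in lean mice. Obese arrays stood above all arrays of the other 4 groups for both Plin2 and Fabp5, as the plot of levels by group shows.

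**Figure D1:**
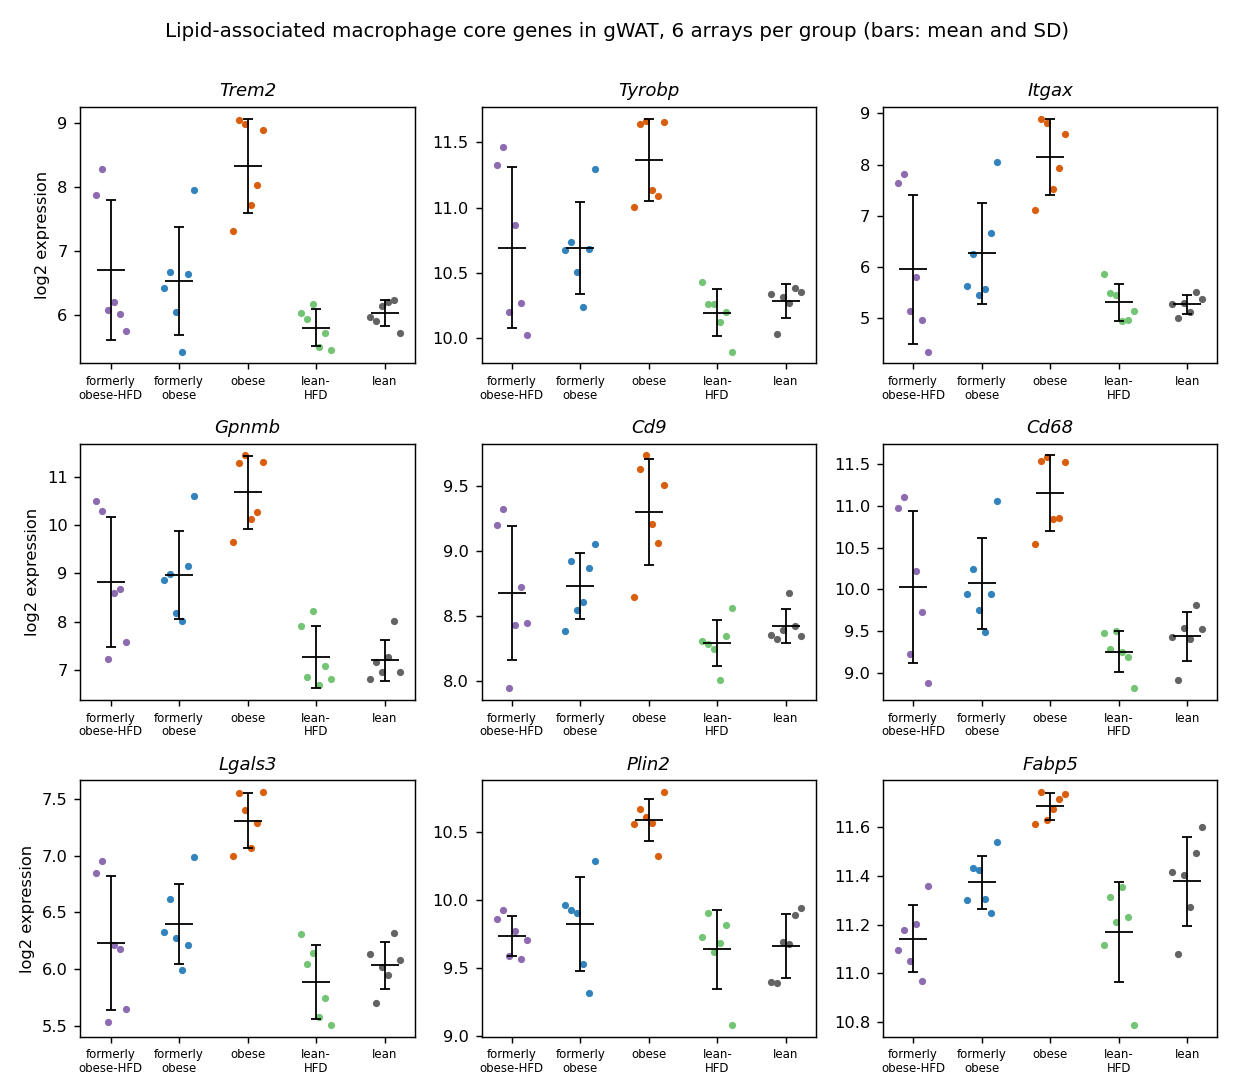
Log2 expression (y axis) of the 9 measured genes on each array (points), by group (x axis), with bars for the mean and SD of 6 arrays. Obese mice have the highest mean in every panel, and 1 formerly obese array and 2 formerly obese-HFD arrays stand above the rest of their groups for Trem2, Itgax, Gpnmb and Cd68.

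The genes whose levels moved most between obese and lean mice are shown together with their regulatory sequence. For Itgax, Trem2, Cd68 and Gpnmb these are the 250 bases before the listed RefSeq start. They run 5' to 3' on the strand of the gene (build GRCm38.p6). The Itgax gene itself begins at chr7:128129526, so the last bases printed for it lie inside the gene. Itgax is on chromosome 7 (plus strand, upstream bases chr7:128129300-128129549), Trem2 on chromosome 17 (plus strand, chr17:48346151-48346400), Cd68 on chromosome 11 (minus strand, chr11:69666171-69666420) and Gpnmb on chromosome 6 (plus strand, chr6:49036268-49036517). Capitals mark matches, on either strand, to the AP-1 site TGANTCA and to GAGGAA, the purine-rich core bound by PU.1, a factor that macrophages require.
Itgax: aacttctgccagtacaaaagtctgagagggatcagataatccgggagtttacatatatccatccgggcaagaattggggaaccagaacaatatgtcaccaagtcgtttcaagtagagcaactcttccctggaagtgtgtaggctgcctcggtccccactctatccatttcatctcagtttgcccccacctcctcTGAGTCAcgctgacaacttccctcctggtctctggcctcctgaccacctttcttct
Trem2: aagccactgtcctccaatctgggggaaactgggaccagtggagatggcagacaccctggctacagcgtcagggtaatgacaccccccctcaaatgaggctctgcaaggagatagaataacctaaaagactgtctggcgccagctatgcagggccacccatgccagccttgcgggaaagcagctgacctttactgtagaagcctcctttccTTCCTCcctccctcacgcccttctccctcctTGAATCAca
Cd68: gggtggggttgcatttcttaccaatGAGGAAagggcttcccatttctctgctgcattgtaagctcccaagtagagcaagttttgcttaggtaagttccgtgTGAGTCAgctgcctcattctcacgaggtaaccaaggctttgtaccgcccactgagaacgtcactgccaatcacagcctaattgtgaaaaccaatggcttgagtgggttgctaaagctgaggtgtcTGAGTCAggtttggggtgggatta
Gpnmb: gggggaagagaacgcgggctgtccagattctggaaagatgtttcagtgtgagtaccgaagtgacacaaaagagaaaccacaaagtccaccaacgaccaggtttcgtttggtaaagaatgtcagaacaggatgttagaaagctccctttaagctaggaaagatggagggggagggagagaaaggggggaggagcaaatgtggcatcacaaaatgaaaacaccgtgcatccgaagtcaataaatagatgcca
Promoters of 7 measured genes were in the RefSeq table used, with those of Tyrobp and Fabp5 not analysed here. The stretches read for Itgax and Plin2 reach into their genes, and distances count from the listed start. An AP-1 match occurred in 3 of the 7, at 56 bases before the start in Itgax, 9 in Trem2, and 149 and 24 in Cd68, and 6.75% of 32851 promoters of the same length held one. GAGGAA occurred in 2 of the 7, at 40 bases before the start on the opposite strand in Trem2 and at 225 bases in Cd68, against 23.3% of all promoters. The E-box CACGTG, read by the lysosomal factors of the MiT/TFE family, occurred in 0 of the 7, against 6.02%. None of these motifs overlapped another in the printed sequences, and a match describes letters only.

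The first comparison, of obese with lean mice, asked how prolonged HFD feeding bears on these genes. Of the 9 genes, 8 rose in obese mice and 0 fell, where 3.93% of all probe sets rose and 2.11% fell. Gpnmb showed the largest change of the 9, 11.2-fold (3.49 ± 0.32, SE of the limma fit, adjusted p = 0.00022), and Itgax rose 7.36-fold (2.88 ± 0.28, adjusted p = 0.00027). Trem2 rose 4.92-fold (2.30 ± 0.28, adjusted p = 0.000651) and its adaptor Tyrobp 2.11-fold (1.08 ± 0.13, adjusted p = 0.000692). The other 4 genes with a call rose less than Trem2. Cd68 rose 3.27-fold (1.71 ± 0.20), Lgals3 2.41-fold (1.27 ± 0.12), Plin2 1.90-fold (0.93 ± 0.11) and Cd9 1.84-fold (0.88 ± 0.16). The median difference over the 9 genes was 1.27, beside -0.02 over all probe sets.

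Every obese array lay above every lean array for 8 of the 9 genes, a separation that 3.09% of all probe sets showed. Cd9 was the exception, since obese 1 (8.65) lay just below lean 4 (8.68). Fabp5 had separate groups too, yet its difference of 0.31 ± 0.09 (1.24-fold, limma adjusted p = 0.0542) missed the fold cut-off. Fabp5 has 4 probe sets with its symbol alone, and they disagree on size. The brightest pair gave 1.24-fold and 1.23-fold, while the other pair gave 1.78-fold (0.83 ± 0.17, adjusted p = 0.0123) and 1.67-fold (0.74 ± 0.16, adjusted p = 0.0131), and both of these passed. The change of Fabp5 is therefore uncertain in size, and why its probe sets disagree was not tested. The second probe set of Cd9, at a mean of 5.12 over all arrays, differed by 0.02 ± 0.10 between obese and lean mice.

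General macrophage markers moved with the core genes. The mean of 12 markers that are not among them (Adgre1, Csf1r, Mertk, Fcgr1, Cd14, Lyz2, Mpeg1, Ctss, Aif1, Cx3cr1, Itgam and C5ar1) ran from 8.14 to 8.91 on obese arrays and from 7.58 to 7.81 on lean arrays. Of these markers 8 rose and 0 fell, among them Mpeg1 (1.84 ± 0.19), a pore-forming protein of phagocytes, the lysosomal protease Ctss (1.54 ± 0.20) and Adgre1 (1.38 ± 0.20), a surface receptor of tissue macrophages. Of 9 markers of resident-type macrophages 0 rose and 4 fell, with Timd4, a receptor for dying cells, at -1.03 ± 0.18, F13a1 at -0.50 ± 0.10, Lyve1 at -0.58 ± 0.13 and Cd163 at -0.63 ± 0.16. The other 5 did not pass and lay between -0.13 (Gas6) and 0.27 (Clec10a). Markers of adipocytes and fibroblasts moved as well. Of 8 adipocyte markers 1 rose, the hormone Lep (0.69 ± 0.14), and 3 fell, the glucose transporter Slc2a4 (-1.02 ± 0.18), Retn (-0.75 ± 0.15) and the lipase Lipe (-0.41 ± 0.08), and their mean lay between 10.30 and 10.81 on obese and between 10.73 and 10.92 on lean arrays. Of 7 preadipocyte and fibroblast markers 4 rose, among them the collagens Col1a1 (0.95 ± 0.12) and Col3a1 (0.74 ± 0.11), and 1 fell, the peptidase Dpp4 (-0.59 ± 0.13), with a mean between 8.35 and 8.75 on obese and between 8.12 and 8.31 on lean arrays. The part of either cell type in the levels of Cd9, Lgals3, Plin2 and Fabp5 was not tested. Markers of hepatocytes, a cell type foreign to the depot, also differed between arrays, and the mean of 8 such genes lay between 4.98 and 6.63 on obese and between 5.55 and 9.32 on lean arrays. With that mean as a covariate the same number of core genes, 8, rose.

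The distance of each gene from the general marker mean of the same array sets it against the average of those markers. Single markers differed between obese and lean mice by between -0.30 and 1.84. Mpeg1 (1.84) differed more than Cd68 (1.71), and Ctss (1.54) and Adgre1 (1.38) more than Lgals3 (1.27) and Tyrobp (1.08). The marker mean itself was 0.85 higher in obese than in lean mice. Beyond it, Gpnmb differed by 2.64, Itgax by 2.03, Trem2 by 1.45, Cd68 by 0.86, Lgals3 by 0.42 and Tyrobp by 0.23. Obese and lean arrays remained separate on this scale for Gpnmb, Itgax, Trem2, Cd68 and Tyrobp, which makes 5 of 9 genes. Of all probe sets 0.247% lay above in the same way. The subtraction lowers the difference of every probe set by that of the marker mean, so this share is small by construction. It gives no background rate for macrophage genes. Lgals3 (0.42), Plin2 (0.08), Cd9 (0.03) and Fabp5 (-0.54) overlapped between the groups. These values are descriptions without a test. With the marker mean as a covariate in the limma fit, 0 of the 9 genes and 0 of all 41345 probe sets passed. Since the marker mean does not overlap between obese and lean arrays, it cannot be told apart from the group.

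**Figure D2:**
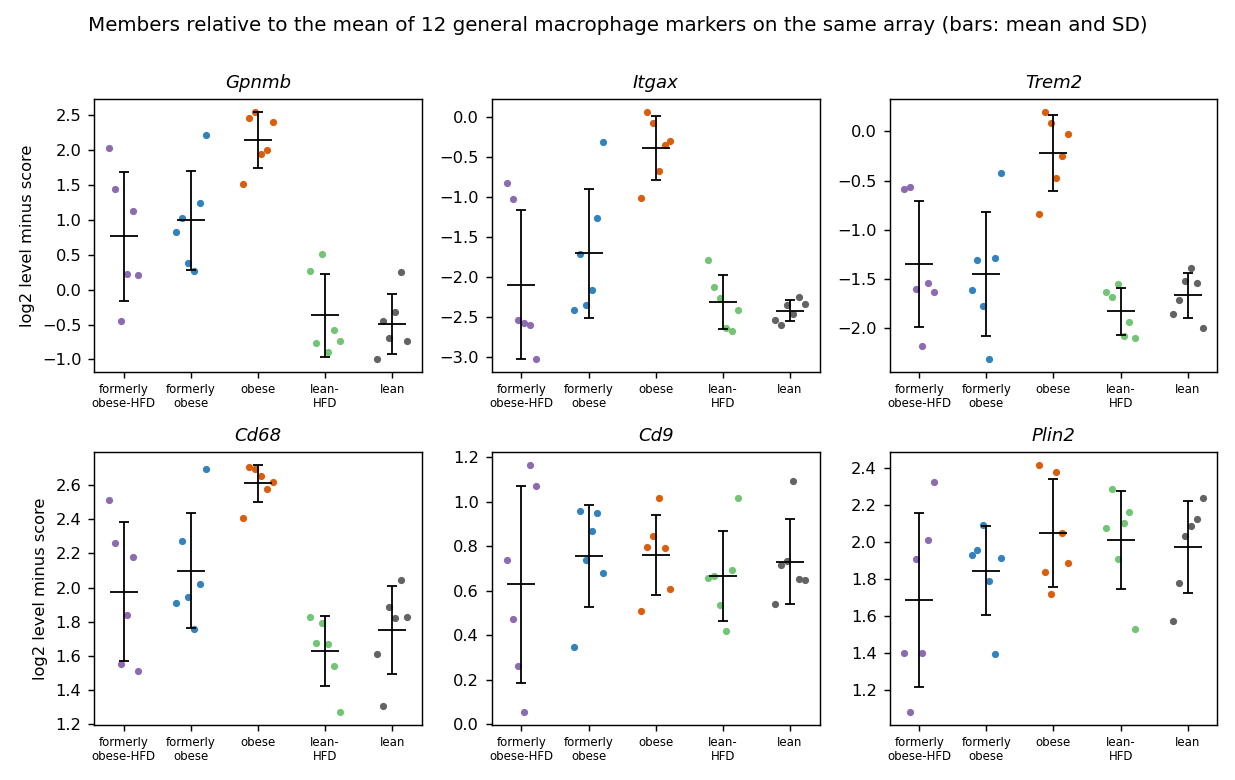
Log2 level of 6 of the core genes minus the mean of 12 general macrophage markers on the same array (y axis), by group (x axis), with points for arrays and bars for mean and SD (n = 6). Gpnmb, Itgax, Trem2 and Cd68 of obese arrays stand above all lean arrays on this scale, and Cd9 and Plin2 overlap.

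Genes that work with the core genes were counted in the same comparison. Of 20 further genes of lipid-associated macrophages, 14 rose and 0 fell (median 0.66), led by p-value by Atp6v0d2 (4.55 ± 0.37), part of the pump that acidifies lysosomes, the macrophage elastase Mmp12 (3.77 ± 0.39) and Cstb (0.87 ± 0.09), which inhibits cathepsins. Fabp4, Lpl and Cd36, which adipocytes express strongly, were among the 6 without a call, at -0.01 ± 0.06, -0.06 ± 0.06 and -0.01 ± 0.06. A list around Trem2 and Tyrobp signalling also holds phosphatases and other receptors, so its count does not measure the strength of the signal. Of its 11 measured genes 7 rose and 0 fell (median 0.82). Those that rose included the exchange factor Vav1 (1.15 ± 0.15), the adaptor Lat2 (1.48 ± 0.22) and the phosphatase Ptpn6 (0.87 ± 0.14). Among 10 binding partners and receptors of the core proteins 3 rose, namely Cd44 (1.58 ± 0.19), a receptor for osteopontin, Itgb2 (1.47 ± 0.22), the integrin chain that pairs with that of Itgax, and Ptgfrn (0.50 ± 0.10), a partner of Cd9. A list of regulators of lipid and lysosome genes also holds cholesterol exporters. Of its 9 measured genes 2 rose, Spi1 (1.19 ± 0.18), which encodes PU.1, and the exporter Abcg1 (0.94 ± 0.15). Among 15 relatives from the same protein families 2 rose and 1 fell, the tetraspanin Cd53 (1.22 ± 0.19) and the integrin chain Itgam (0.65 ± 0.18), also among the general macrophage markers, on one side and the perilipin Plin4 (-0.44 ± 0.10) on the other.

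The second comparison, of formerly obese with obese mice, covers the 7 weeks of control diet. Of the 9 genes 7 fell and 0 rose, where 3.17% of all probe sets fell and 2.02% rose. Itgax fell by 1.88 ± 0.45 (3.68-fold, adjusted p = 0.0319), Trem2 by 1.80 ± 0.41 (3.48-fold, adjusted p = 0.0254) and Gpnmb by 1.72 ± 0.43 (3.28-fold, adjusted p = 0.0412). Cd68 fell by 1.08 ± 0.26, Lgals3 by 0.91 ± 0.16, Plin2 by 0.77 ± 0.15 and Tyrobp by 0.67 ± 0.18 (adjusted p = 0.0485). All 6 formerly obese arrays lay below the obese mean for each of the 9 genes. For Lgals3, Plin2 and Fabp5 they lay below every obese array, which 2.41% of all probe sets did. For Gpnmb, Itgax, Trem2, Cd68 and Tyrobp, 5 of the 6 did so, and formerly obese 6 alone lay in the obese range.

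Cd9 and Fabp5 did not pass. Cd9 differed by -0.57 ± 0.18 with an adjusted p of 0.101, just over the threshold, and passed without formerly obese 6 (adjusted p = 0.078) or without obese 1 (adjusted p = 0.0271). The dimmer second probe set of Cd9 differed by 0.10 ± 0.10, in the other direction (limma adjusted p = 0.706). Fabp5 differed by -0.31 ± 0.07 (1.24-fold lower, limma adjusted p = 0.0194) and missed the fold cut-off, while its dimmer probe sets fell by 0.93 ± 0.13 and 0.90 ± 0.13. The call of Tyrobp was lost when any of formerly obese 3, formerly obese 4, obese 2, obese 3 or obese 6 was left out, with adjusted p-values between 0.102 and 0.108. General macrophage markers lay between 7.74 and 8.37 on formerly obese and between 8.14 and 8.91 on obese arrays, and 6 of the 12 fell. With their mean as a covariate 0 of the 9 core genes passed, beside 233 of all probe sets. With the hepatocyte marker mean as a covariate 4 genes passed (Itgax, Trem2, Lgals3 and Plin2), while Gpnmb (-1.53 ± 0.46, limma adjusted p = 0.12), Cd68 (-0.96 ± 0.28, adjusted p = 0.102) and Tyrobp (-0.62 ± 0.19, adjusted p = 0.131) did not. That mean lay at 5.36 to 7.91 on formerly obese arrays. Of the adipocyte markers 2 rose and 1 fell (Lep, -0.97 ± 0.19), and of the fibroblast markers 1 rose and 3 fell, among them Col1a1 (-1.02 ± 0.11).

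Other genes of lipid-associated macrophages fell as well, 12 of 20 with 0 that rose (median -0.49), with Cstb (-0.78 ± 0.10), the protease Ctsl (-0.47 ± 0.09) and the lysosomal cholesterol carrier Npc2 (-0.47 ± 0.09) at the smallest p-values. Of the 11 signalling genes 1 fell, the adaptor Lat2 (-1.22 ± 0.26), and of the 10 partners 2 fell, Cd44 (-1.12 ± 0.24) and Itgb2 (-0.98 ± 0.26). Spi1 and the cholesterol exporter Abcg1, which rose in obese mice, fell here by 0.92 ± 0.22 and 0.67 ± 0.16. F13a1 (0.40 ± 0.10) and Timd4 (0.73 ± 0.19) of the 9 resident-type markers rose. Mesothelial markers, from the cells that line the depot, rose in 4 of 7 (Gpm6a 0.93 ± 0.18, Lrrn4 0.63 ± 0.14, Wt1 0.75 ± 0.18 and Upk3b 0.79 ± 0.22), and their part in the result was not tested.

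Set against lean mice, formerly obese mice show which levels still differed after the diet switch. This comparison shares the formerly obese arrays with the one before and the lean arrays with the first. None of the 9 genes passed, as none of the 41345 probe sets did (0%) in the fit made here. The paper lists 6 genes for this comparison at the same fold and adjusted p cut-offs, none of them a core gene. Why the counts differ was not tested. At an unadjusted limma p under 0.05 lay 2861 probe sets, with 6 of the 9 genes among them, beside 6.92% of all probe sets. The sign was positive for 8 of 9 genes, beside 47.8% of all probe sets. Gpnmb differed most, by 1.77 ± 0.37 (3.41-fold, limma adjusted p = 0.477), and each of the 6 formerly obese arrays exceeded the mean of lean mice. It alone met the study's other definition, with an unadjusted p under 0.01, which 0.740% of all probe sets met upward.

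The other genes lay closer to lean mice. Itgax differed by 1.002 ± 0.37 (adjusted p = 0.619), Cd68 by 0.63 ± 0.23, Trem2 by 0.50 ± 0.32 and Tyrobp by 0.41 ± 0.14. Lgals3 (0.37 ± 0.16), Cd9 (0.31 ± 0.12) and Plin2 (0.16 ± 0.16) were smaller still, and Fabp5 stood at -0.0027 ± 0.092. A single array carried part of these differences, since formerly obese 6 was the highest of its group for 9 of 9 genes. Without it Gpnmb differed by 1.45 ± 0.26 (2.72-fold, adjusted p = 0.313), Itgax by 0.65 ± 0.20, Cd68 by 0.44 ± 0.16 and Trem2 by 0.21 ± 0.21. Formerly obese 1, 2 and 5 also exceeded the whole lean range, for 7, 7 and 6 of the 9 genes, while formerly obese 3 and 4 did so for 2 and 1.

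**Figure D3:**
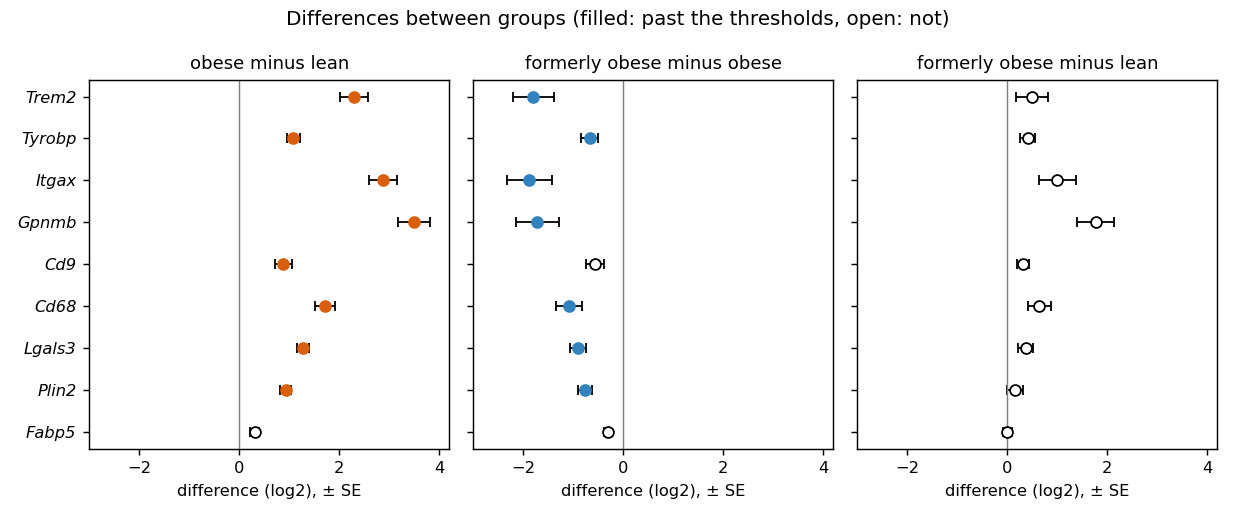
Difference in log2 expression (x axis, with bars for the SE of the limma fit, 6 arrays per group) for each of the 9 genes (y axis) in 3 comparisons. Filled points passed the cut-offs, 8 above 0 for obese minus lean and 7 below 0 for formerly obese minus obese, and open points did not, including all 9 for formerly obese minus lean.

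The mean of the general macrophage markers exceeded that of lean mice by 0.29 in formerly obese mice (7.74 to 8.37 against 7.58 to 7.81). Gpnmb differed by 1.49 beyond that mean. On this scale all 6 formerly obese arrays lay above all 6 lean arrays, which 0.0145% of all probe sets did. The subtraction lowers that share by construction too. The core genes next to Gpnmb were Itgax at 0.72, Cd68 at 0.35 and Trem2 at 0.21, all with overlap. With the marker mean as a covariate in the limma fit the differences were lower, at 0.78 ± 0.30 for Gpnmb (adjusted p = 0.714), 0.0034 ± 0.29 for Itgax, -0.01 ± 0.17 for Cd68 and -0.38 ± 0.24 for Trem2. The median over the 9 genes was then -0.01, against 0.41 without the covariate. Among the 20 further genes of lipid-associated macrophages 0 passed in this comparison (median 0.14), with Clec7a, a receptor for fungal sugars, at 0.84 ± 0.19, Mmp12 at 2.26 ± 0.52 and the cholesterol ester hydrolase Nceh1 at 0.86 ± 0.20. Signalling genes, partners and relatives had 0 calls too, as had the list of regulators and exporters.

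The 48 h of HFD were examined in mice with and without a history of obesity. None of the 9 genes passed in either comparison. Formerly obese-HFD mice differed from formerly obese mice by between -0.32 (Itgax) and 0.18 (Trem2), with 0 calls among the 9 genes and 0% of all probe sets called in either direction. Lean-HFD mice differed from lean mice by between -0.23 (Trem2) and 0.06 (Gpnmb), again with 0 calls, beside 0.00242% of all probe sets called higher and 0% called lower. Counts at an unadjusted limma p under 0.05 were 1 of 9 in the first comparison (Fabp5, -0.23 ± 0.08), beside 5.34% of all probe sets, and 0 of 9 in the second, beside 5.90%. All 6 formerly obese-HFD arrays lay below the formerly obese mean for Fabp5, and all 6 lean-HFD arrays below the lean mean (-0.21 ± 0.11). Its dimmer probe sets differed more between lean-HFD and lean mice, by -0.47 ± 0.21 and -0.48 ± 0.21. Their unadjusted limma p-values were 0.0393 and 0.0398, with an adjusted p of 0.841 for both. Between formerly obese-HFD and formerly obese mice they differed by -0.25 ± 0.14 and -0.28 ± 0.17. The difference between both responses, tested as an interaction over 24 arrays, lay between -0.36 and 0.40 with adjusted p = 1 for each of the 9 genes. At an unadjusted p under 0.05, 0 of the 9 genes passed for the interaction, beside 4.61% of all probe sets. The hepatocyte marker mean lay between 6.40 and 10.71 on lean-HFD arrays and between 5.55 and 9.32 on lean arrays. With that mean as a covariate 0 of the 9 genes passed in either diet comparison. Lean-HFD mice then differed from lean mice by between -0.22 (Trem2) and 0.40 ± 0.33 (Gpnmb). The part of hepatocyte RNA in these results was not tested.

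Formerly obese-HFD mice were the most uneven group by the median SD, though not for Plin2 and Fabp5. The median SD over the 9 genes was 0.62 there, 0.35 in formerly obese, 0.41 in obese, 0.29 in lean-HFD and 0.20 in lean mice. Formerly obese-HFD 1 and 2 lay above their group mean for 8 and 9 of the 9 genes, and both reached the obese range for 6. Formerly obese-HFD 3 lay above the group mean for 0 genes, and 5 and 6 for 1 each. The marker mean of general macrophages split the same arrays in part, with 8.46, 8.85, 7.68, 8.37, 7.55 and 7.38 on formerly obese-HFD 1 to 6. Formerly obese-HFD 4 had a marker mean close to that of array 1, with Itgax at 5.80 against 7.64 and Trem2 at 6.20 against 7.87. Without arrays 1 and 2, a choice made after their values were seen that by itself lowers the group, Itgax differed from formerly obese mice by -1.21 ± 0.48 and Gpnmb by -0.94 ± 0.48, with 0 calls.

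**Figure D4:**
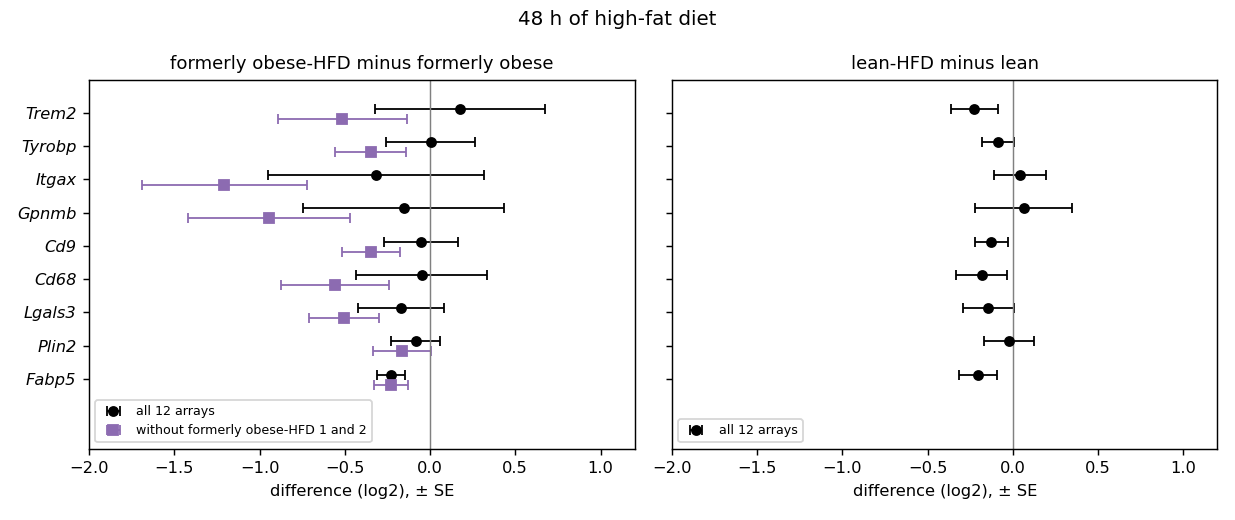
Difference in log2 expression after 48 h of HFD (x axis, bars for SE) for the 9 genes (y axis), in mice with a history of obesity (left) and without (right). Squares show the left comparison without formerly obese-HFD 1 and 2, a choice of the highest arrays that itself sets the shift to lower values, and no point passed the cut-offs.

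Formerly obese-HFD mice against lean-HFD mice gave 0 calls among 9 genes (0% of all probe sets, 3418 of them at an unadjusted limma p under 0.05) and 8 positive differences (48.2% of all probe sets). Gpnmb differed by 1.55 ± 0.54 (2.94-fold, adjusted p = 0.497), Trem2 by 0.90 ± 0.41 and Cd68 by 0.77 ± 0.34, and these 3 of 9 had an unadjusted p under 0.05, beside 8.27% of all probe sets. Without formerly obese-HFD 1 and 2 they stood at 0.76 ± 0.38, 0.21 ± 0.16 and 0.26 ± 0.24, and Itgax at -0.25 ± 0.27, against 0.64 ± 0.54 with all arrays. The next 2 comparisons share their arrays with those above. Against obese mice 7 of 9 genes fell in formerly obese-HFD mice, where 4.38% of all probe sets fell and 3.90% rose, with Itgax at -2.20 ± 0.59 and Plin2 at -0.85 ± 0.09. Fabp5 was among them here (-0.54 ± 0.08, adjusted p = 0.00123), while Tyrobp (-0.67 ± 0.25, adjusted p = 0.14) and Cd9 (-0.62 ± 0.24, adjusted p = 0.151) did not pass. In obese mice 9 of 9 genes rose against lean-HFD mice, where 4.64% of all probe sets rose and 3.16% fell. Hepatocyte markers differed here as well. In obese against lean-HFD mice 8 of 8 fell (median -3.74), and in formerly obese-HFD against obese mice 6 of 8 rose (median 1.67). These 2 comparisons were not refitted with the hepatocyte marker mean as a covariate. Formerly obese-HFD against lean-HFD mice had a median of -2.11 for these markers, with 0 calls.

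Group means were ordered alike for most genes, with obese mice first for all 9. The next place went to formerly obese mice for 6 genes, to formerly obese-HFD mice for Trem2 and Tyrobp and to lean mice for Fabp5. Lean-HFD mice had the lowest mean for 6 genes, lean mice for Gpnmb and Itgax and formerly obese-HFD mice for Fabp5. Of the 36 steps between neighbours in these orders 6 passed the cut-offs, and all 6 were steps down from obese mice. Between formerly obese-HFD and formerly obese mice, and between lean-HFD and lean mice, no gene passed.

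Array by array the core genes often moved together inside groups, though not every gene did. Obese 1 was the lowest obese array for 8 of 9 genes and obese 4 lay below the group mean for all 9, while obese 2 and 6 lay above it for 9 and obese 3 for 8. The marker mean of general macrophages had the same split, at 8.14, 8.19 and 8.27 on obese 1, 4 and 5 and at 8.83, 8.89 and 8.91 on obese 2, 3 and 6. In formerly obese mice array 6 was highest for all 9 genes and array 4 lowest for 5, with marker means of 8.37 and 7.74. Lean 5 was the highest lean array for 6 genes and lean 2 the lowest for 7. Lean-HFD 6 was lowest in its group for 6 but highest for Cd9 (8.56). Formerly obese-HFD 6 was lowest for 4 genes but highest for Fabp5 (11.36). Formerly obese 5 was lowest for 2 genes, Plin2 and Fabp5, and above its group mean for 4. Whether the share of macrophages in the piece of tissue sets these levels was not tested.

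**Figure D5:**
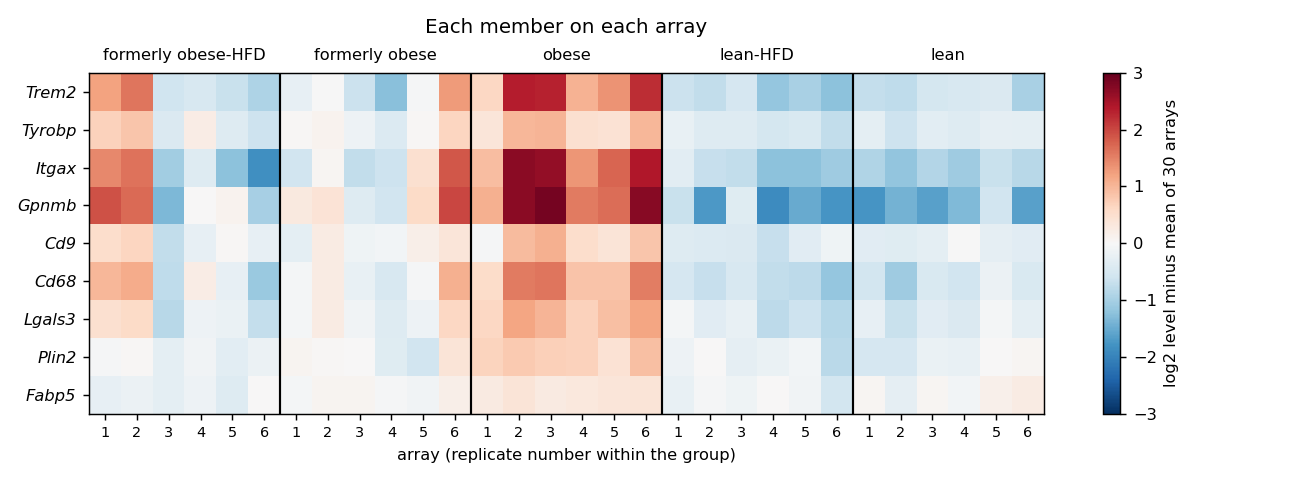
Map of the 9 genes (rows) on the 30 arrays (columns, by group and replicate number), coloured by log2 level minus the mean of the gene over 30 arrays (colour bar). Obese arrays are red in nearly all rows, with obese 2, 3 and 6 darkest, and formerly obese 6 and formerly obese-HFD 1 and 2 stand out from their groups.

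The genes most like the core set were found from the root mean square difference, over the 30 arrays, between a gene in SD units and the mean of the 9 core genes in SD units. This is a description, and the core genes themselves set the profile. Lgals3 (0.19), Cd68 (0.19), Tyrobp (0.23), Trem2 (0.24) and Itgax (0.25) were the core genes nearest to it, and Fabp5 (0.76) the farthest. Of genes outside the set Lipa, the acid lipase of lysosomes, came nearest at 0.16 and was nearer than every core gene. It averaged 9.27 in formerly obese-HFD, 9.26 in formerly obese, 10.36 in obese, 8.77 in lean-HFD and 8.76 in lean mice, and was 1.60 ± 0.19 higher in obese than in lean mice. Adam8 (0.23), a membrane protease, followed with Igsf6 (0.23), P2ry6 (0.24), a receptor for the nucleotide UDP, the stress-induced transcription factor Atf3 (0.25), the lectin receptor Clec12a (0.25), Tlr8 (0.25), a receptor for RNA, and Capg (0.25), which caps actin filaments. Each of these 8 rose in obese mice, by 1.11 (Capg) to 2.25 (Adam8), and lay 0.30 (P2ry6) to 0.74 (Clec12a) above lean mice in formerly obese mice without passing there. They were chosen for likeness to a profile that is highest in obese mice, so these directions follow from the choice.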

How the data were processed

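The authors measured gWAT RNA on single-colour Affymetrix arrays. They deposited log2 values, 1 for each probe set. Per the submitters' processing notes, Affymetrix Expression Console 1.4.1.46 computed them by RMA, which corrects background, normalizes by quantiles and summarizes probes. RMA normalizes all arrays together, so a change in the total RNA of a depot is not measured. The number of arrays limits the precision. The genome build behind the probe sets is not given in the sources used here.

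The log2 values were used as deposited. Of 41345 probe sets 23521 carried exactly 1 gene symbol, 1820 several and 16004 none. Groups were compared two-sided by moderated linear models (limma 3.58.1 under R 4.3.3) on the 12 arrays of both groups, or 24 for the interaction, with Benjamini-Hochberg adjustment over all probe sets. A call needed adjusted p under 0.10, a fold over 1.3 and a group mean over 16 on the linear scale, the stricter of the study's 2 definitions. The other takes an unadjusted p under 0.01 and was an alternative.

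The core genes and all gene lists were chosen with earlier results of these data known, so their counts are no independent support. All core genes are named, with up to 3 genes of smallest p per list and comparison, and the 8 genes with the profile most like the core set. Cd163, Gas6, Clec10a, Upk3b, Itgam, Lep, Lipe, Fabp4, Lpl and Cd36 fall outside this rule and were picked with their values known. The scripts were tested on simulated arrays. Promoter sequences are from RefSeq (GRCm38.p6). Alternatives covered the samples in the fit, thresholds, filters, normalization, probe sets, covariates, the replicate number as a block and leaving out each array. Figures were drawn with Python 3.11.15 and matplotlib 3.10.9.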

Additional observations from a re-analysis of the deposited data

Results flagged for a closer look

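Of 45 sets of 6 arrays (9 genes in 5 groups), 4 held an array far from the others, with a gap to its nearest neighbour, as a share of the range of the group, above Dixon's critical value for 6 arrays. Chance alone gives about 1 in 20 such sets. Gpnmb of lean 5 stood at 8.02, against 7.26 for the next lean array (ratio 0.632). Cd9 of lean 4 stood at 8.68, against 8.42 for the next lean array (ratio 0.734), and this array is the one that overlaps obese 1. Plin2 of lean-HFD 6 stood at 9.08, below the next lean-HFD array at 9.62 (ratio 0.651). Tyrobp of lean 2 stood at 10.04, below the next lean array at 10.27 (ratio 0.658).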

How the results depend on the processing

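The counts of called core genes kept to within 1.5 times the main count under all but 4 of the settings tried in 7 comparisons. The further comparisons of formerly obese-HFD with obese mice and of obese with lean-HFD mice were not refitted, apart from the steps between neighbouring groups. In obese against lean mice 8 genes rose, also with each array left out in turn (8 to 8), and 0 did with the mean of the general macrophage markers as a covariate. In formerly obese against obese mice 7 fell, 6 to 8 with each array left out, 0 with the macrophage marker mean and 4 with the hepatocyte marker mean as a covariate, where the 3 genes that lost the call stood at -1.53 (Gpnmb), -0.96 (Cd68) and -0.62 (Tyrobp). Over all probe sets, calls in obese against lean mice numbered 2496 without a covariate, 0 with the macrophage and 1295 with the hepatocyte marker mean, and in formerly obese against obese mice 2146, 233 and 1463, and the cause was not tested. In formerly obese against lean mice 0 passed, also with each array left out (0 to 0), and 1 (Gpnmb) at an unadjusted p under 0.01. The formerly obese-HFD against formerly obese, formerly obese-HFD against lean-HFD and lean-HFD against lean comparisons and the interaction stayed at 0 with each array left out (0 to 0), and those that hold formerly obese-HFD mice also without arrays 1 and 2 of that group, an alternative chosen after seeing the data. Of 36 steps between neighbouring groups 6 passed, 8 with 1 fit over all 30 arrays, 5 at an adjusted p under 0.05 and 7 with the replicate block. Over 63 differences (9 genes in 7 comparisons) and their alternatives, 1701 values in all, the sign turned in 90, in 0 of them where the gene was called in either setting, 23 lost a call and 13 gained one.

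With the replicate number as a block, 8 genes passed in obese against lean mice, 8 in formerly obese against obese mice (Cd9 added, adjusted p = 0.0594) and 0 in the other 5 of the 7 comparisons. The numbers do not pair the arrays by this check, since deviations of same-numbered arrays had a median correlation of -0.02 over 60 pairs (-0.23 to 0.41), beside 0.00 over 300 pairs of different number. Crossing the numbers was not tried. Averaging all probe sets of a gene gave Fabp5 a call in obese against lean mice (0.55 ± 0.12) and in formerly obese against obese mice (-0.61 ± 0.09). Leaving out the fold filter did so too. Groups of 6 arrays, males alone and whole tissue limit what these values cover, and levels of different probe sets cannot be set against each other.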
